A study of Mus musculus with 6 samples.

Results

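Cells release ATP through channels such as pannexin 1, and the released nucleotides act on receptors in the plasma membrane of the same or neighbouring cells. P2X receptors are ATP-gated cation channels built from trimers of subunits. P2Y receptors and adenosine receptors are G protein-coupled, and adenosine arises outside the cell as nucleotides are broken down. In the kidney tubule, purinergic signalling is known for its effects on salt and water transport. The genes described here are 8 receptor genes and the channel gene *Panx1*, chosen by gene name from the deposited table. All 9 were found among its 20624 genes. They comprise the P2X subunits *P2rx4*, *P2rx6* and *P2rx7*, the P2Y receptors *P2ry1*, *P2ry2* and *P2ry14*, and the adenosine receptors *Adora1* and *Adora2b*.

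RNA of 6 samples was sequenced after removal of ribosomal RNA, 3 from wild type mDCT15 cells and 3 from *Pkd1*-/- mDCT15 cells. mDCT15 is a mouse cell line of the distal convoluted tubule, and *Pkd1* encodes polycystin-1. The *Pkd1*-/- cells were made by CRISPR-Cas9 editing, while the genotype field of the labels calls them a knockdown. The labels number the samples as biological replicates but do not say whether they came from separate cultures, and whether the edited cells are a single clone is not given in the sources used here. The cells of both genotypes were grown in the same medium with serum, and no treatment is given.

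For each gene the deposited table holds 1 mean normalized count over all 6 samples, beside the authors' own comparison of the genotypes, which was not used. The levels below are therefore means over both genotypes together. No value of a single sample was analysed, so no error, no depth per sample and no difference between *Pkd1*-/- and wild type cells is given, and a level can come mostly from one genotype. This also holds for the edited gene, *Pkd1*, with a mean normalized count of 3175 over both genotypes, which does not check the labels. Because these are bulk samples, fewer cells that express a gene and less RNA per cell cannot be told apart.

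The mean normalized counts of the table add up to 16746088, with a median of 104.5 per gene, and 5385 genes (26.1%) had a mean under 5. The reference genes listed as abundant in most cells lay at or above percentile 91.5 of all genes per kb, with *Actb* at percentile 99.99. The labelled cell type was compared with its markers. Of 13 markers of the distal convoluted tubule, 7 were analysed and 5 had a mean of at least 10, among them *Wnk4* at 94.5, *Kcnj16* at 78.0 and *Trpm6* at 3.72 per kb. The defining markers *Slc12a3*, *Pvalb* and *Calb1* have no row in the deposited table, so they were not analysed here. The same holds for the other genes named below as not analysed. Of 7 epithelial markers, 5 were analysed and 4 had a mean of at least 10. *Cdh16* was highest at 1125 per kb, followed by *Pax8* at 679, *Pax2* at 373 and *Epcam* at 44.6, while the keratin gene *Krt8* had only 0.501 and *Cdh1* and *Krt18* were not analysed here. Of 11 markers of other nephron segments, 4 were analysed, with *Lrp2*, the proximal tubule receptor megalin, highest at 528 per kb. Of 6 leukocyte markers, 3 were analysed, from *Ptprc* at 0.286 to *Csf1r* at 115 per kb, and of 7 fibroblast and endothelial markers, 5 were analysed, from 0.335 for *Pdgfra* to 30.5 for *Col1a1*. The samples are labelled as a cultured cell line, and these values do not show whether other cell types were present. Which cells the marker reads came from was not tested.

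The 3 P2X genes lie on 2 chromosomes, and their coding sequences were compared for identical stretches. The reads were 42 bases long on each end of a fragment. In each pair of these genes the longest identical stretch of coding sequence was 13 to 16 bases, well short of a read. These stretches are the longest exact matches of coding sequence. Longer matches that hold mismatches were not searched for, so the places hardest to tell apart are not known. They are given 5′ to 3′ on the coding strand, read from the GENCODE transcripts of GRCm39, with the identical stretch in capitals and 15 bases of coding sequence on each side. *P2rx4* and *P2rx6* shared 16 bases, in exon 5 of both genes, at chr5:122857255-122857270 and chr16:17385632-17385647, both on the plus strand.
P2rx4: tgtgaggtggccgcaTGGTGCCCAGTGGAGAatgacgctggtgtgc
P2rx6: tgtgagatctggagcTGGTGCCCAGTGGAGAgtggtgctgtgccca

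*P2rx6* and *P2rx7* also shared 16 bases, in exon 8 of both genes, at chr16:17386150-17386165 and chr5:122804232-122804247 on the plus strand.
P2rx6: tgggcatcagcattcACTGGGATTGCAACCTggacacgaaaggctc
P2rx7: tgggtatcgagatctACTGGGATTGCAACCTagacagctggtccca

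Between *P2rx4* and *P2rx7* the longest stretch was 13 bases, in exon 5 of both genes, at chr5:122857207-122857219 and chr5:122796785-122796797.
P2rx4: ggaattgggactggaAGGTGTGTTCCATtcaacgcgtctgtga
P2rx7: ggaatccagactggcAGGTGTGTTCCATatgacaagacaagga

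The longest stretch among the P2Y and adenosine receptors was the 19 bases shared by *P2ry1* (exon 1, chr3:60911283-60911301, plus strand) and *P2ry2* (exon 3, chr7:100647919-100647937, minus strand).
P2ry1: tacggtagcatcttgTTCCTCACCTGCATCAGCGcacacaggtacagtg
P2ry2: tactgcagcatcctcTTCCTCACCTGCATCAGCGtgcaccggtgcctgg

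The other pairs within the P2Y family shared at most 11 bases, and *Adora1* and *Adora2b* shared 13. For comparison, the 29 pairs of members from different families had longest stretches of 9 to 13 bases. Over whole transcripts, the share of 42-base windows also found in the same orientation in a transcript of another gene was highest for *P2rx4*, at 2.27%, followed by 1.18% for *P2rx7* and 0.997% for *P2ry2*. It was 0% for *P2rx6*, *P2ry1*, *Adora2b* and *Panx1*.

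Among the P2X subunits, *P2rx4* was the most abundant, and it was also the most abundant of the 9 genes. *P2rx4* (ENSMUSG00000029470, chromosome 5 from 122845541 to 122867803, plus strand) encodes an ATP-gated channel with high calcium permeability. Its mean normalized count was 475, which is 61.0 per kb of annotated exon, at percentile 60.9 of the 20122 genes with an exon length. It was the only member above the median of all those genes, which was 28.6 per kb. *P2rx7* (ENSMUSG00000029468, chromosome 5 from 122781942 to 122830400, plus strand) encodes the subunit known for a low sensitivity to ATP and for a long intracellular tail. Its coding sequence has 595 codons before the stop codon, against 388 for *P2rx4* and 389 for *P2rx6*. Its mean normalized count was 47.7, or 4.89 per kb, at percentile 30.1. *P2rx6* (ENSMUSG00000022758, chromosome 16 from 17379722 to 17395664, plus strand) encodes a subunit that works mainly in combination with other P2X subunits. Its mean was 19.9, or 4.33 per kb. Per kb, *P2rx4* made up 61.8% of the summed level of the 5 P2X genes analysed, *P2rx7* 4.96% and *P2rx6* 4.38%. The remaining share was mostly that of *P2rx5*, which encodes another P2X subunit, with a mean of 177 and 27.6 per kb (28.0%). *P2rx3*, known from sensory neurons, had 0.858 per kb, and *P2rx1* and *P2rx2* were not analysed here.

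*P2rx7* and *P2rx4* are neighbours. They lie on the same strand with a gap of 15.14 kb and 0 annotated protein-coding genes between them, *P2rx7* first in the direction of transcription. Despite this closeness their levels differed, with 12.5 times as much *P2rx4* per kb as *P2rx7*.

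**Figure D1:**
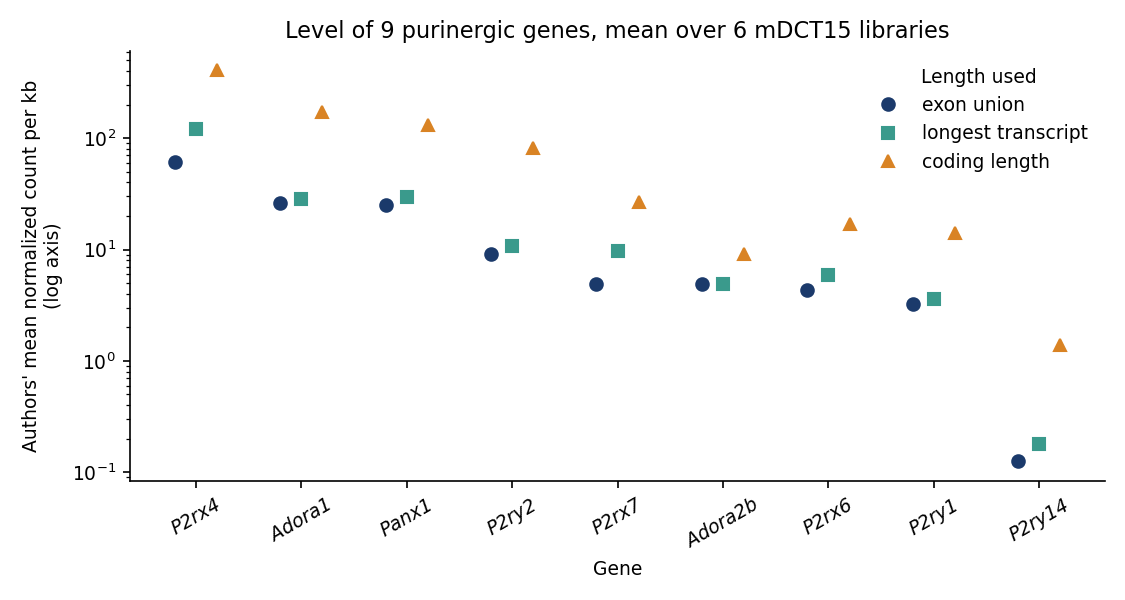
Authors' mean normalized count per kb (log axis) of the 9 genes over the 6 libraries, as circles per kb of all annotated exon, squares per kb of the longest transcript and triangles per kb of coding sequence. Each point is 1 pooled mean without error. *P2rx4* is highest and *P2ry14* lowest by each length.

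The P2Y receptors were led by *P2ry2*. This receptor (ENSMUSG00000032860, chromosome 7 from 100640649 to 100663957, minus strand) responds to both ATP and UTP and couples to phospholipase C. *P2ry2* had a mean normalized count of 92.1, or 9.19 per kb, at percentile 37.4. *P2ry1* (ENSMUSG00000027765, chromosome 3 from 60910159 to 60916403, plus strand), the ADP receptor, had a mean of 15.7, or 3.25 per kb. *P2ry14* (ENSMUSG00000036381, chromosome 3 from 59021276 to 59061134, minus strand), a receptor for UDP-sugars such as UDP-glucose, was close to the lower end of the table per kb. It had 0.125 per kb, at percentile 0.758. Its mean normalized count was 1.40, at percentile 10.4 without a correction for length, while the lowest mean of any gene in the table was 0.618. At a mean of this size only a few reads lie behind the value, and nothing can be said about a difference between samples. *P2ry2* made up 70.2% of the summed level per kb of the 4 P2Y genes analysed, *P2ry1* 24.8% and *P2ry14* 0.953%. Without the correction for length the share of *P2ry1* was 13.9%. *P2ry6*, the UDP receptor, had 0.526 per kb, and the 5 other listed P2Y genes, *P2ry4*, *P2ry10*, *P2ry10b*, *P2ry12* and *P2ry13*, were not analysed here.

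*Adora1* led the adenosine receptors. *Adora1* (ENSMUSG00000042429, chromosome 1 from 134126948 to 134163579, minus strand) encodes the A1 receptor, which lowers cyclic AMP through inhibitory G proteins. Its mean normalized count was 167 and its level 26.1 per kb, at percentile 49.0. *Adora2b* (ENSMUSG00000018500, chromosome 11 from 62139804 to 62157279, plus strand) encodes the A2B receptor, which raises cyclic AMP. It had a mean of 9.05, the lowest but one of the 9 genes. Its annotated exons are the shortest, at 1851 bases, so that per kb it stood at 4.89. *Adora1* had 82.6% and *Adora2b* 15.5% of the summed level of the 3 adenosine receptor genes analysed per kb, while *Adora2b* had 5.04% without the correction for length. *Adora2a* had 0.622 per kb, and *Adora3* was not analysed here.

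*Panx1* (ENSMUSG00000031934, chromosome 9 from 14913424 to 14956813, minus strand) encodes pannexin 1, a large-pore channel through which ATP leaves the cell. It had a mean normalized count of 169 and 25.2 per kb, at percentile 48.6, and the level of *Adora1* was 1.03 times that of *Panx1*. With the same counts divided by only the exon length that no other gene shares, this ratio was 2.09. That value assumes that no read in shared bases was counted, which is not known. *Panx1* made up 99.0% of the summed level of the 2 pannexin genes analysed. *Panx2* had 0.256 per kb, and *Panx3* was not analysed here.

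**Figure D2:**
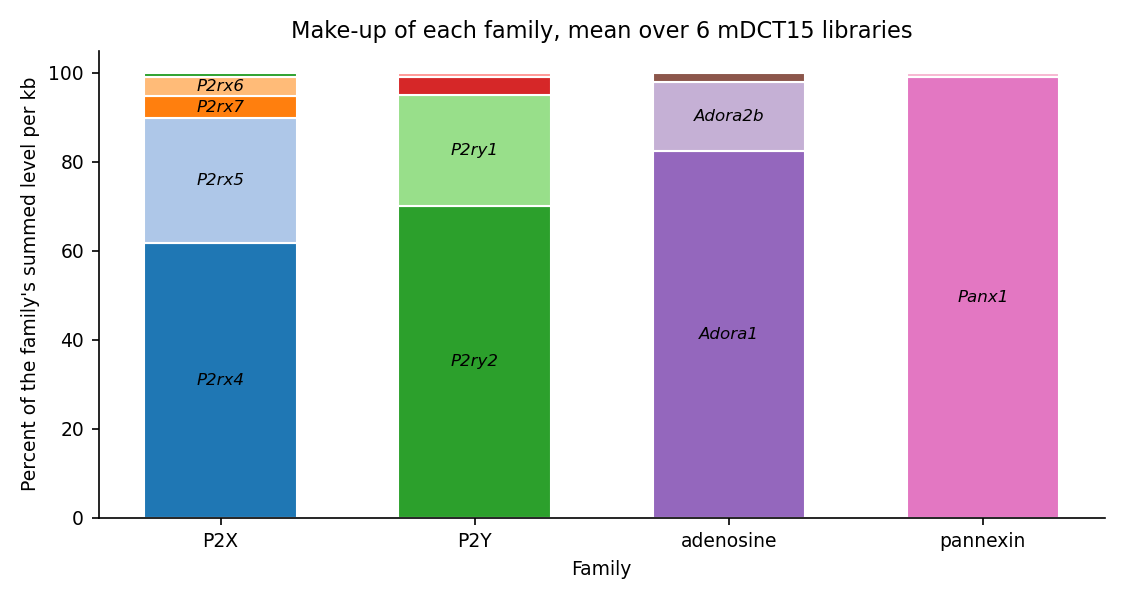
Share of each gene in the summed mean normalized count per kb of exon of its family (percent), for the P2X, P2Y, adenosine receptor and pannexin genes analysed, as means over the 6 libraries. *P2rx4* (61.8%), *P2ry2* (70.2%), *Adora1* (82.6%) and *Panx1* (99.0%) each take the largest share.

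In the order per kb, *P2rx4* was followed by *Adora1*, *Panx1*, *P2ry2*, *P2rx7*, *Adora2b*, *P2rx6*, *P2ry1* and *P2ry14*. *P2rx4* exceeded *Adora1* 2.34-fold. *P2ry2* stood 2.74-fold below *Panx1*. *P2rx7* and *Adora2b* had almost the same level by this length (ratio 1.00), but *P2rx7* was 1.97-fold higher per kb of the longest transcript and 2.95-fold higher per kb of coding sequence. The highest and the lowest of the 9 genes were 488-fold apart. Without values of single samples it cannot be said which neighbours in this order differ beyond their spread. Summed over the genes analysed, the P2X family stood at 98.7 per kb, 7.53 times the P2Y family at 13.1 and 3.12 times the adenosine receptors at 31.6. Without a correction for length, 7 of the 9 genes had a mean of at least 10, as did 66.5% of all genes, and 3 had a mean of at least 100, as did 50.3% of all genes. The genes past 100 were *P2rx4*, *Panx1* and *Adora1*.

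**Figure D3:**
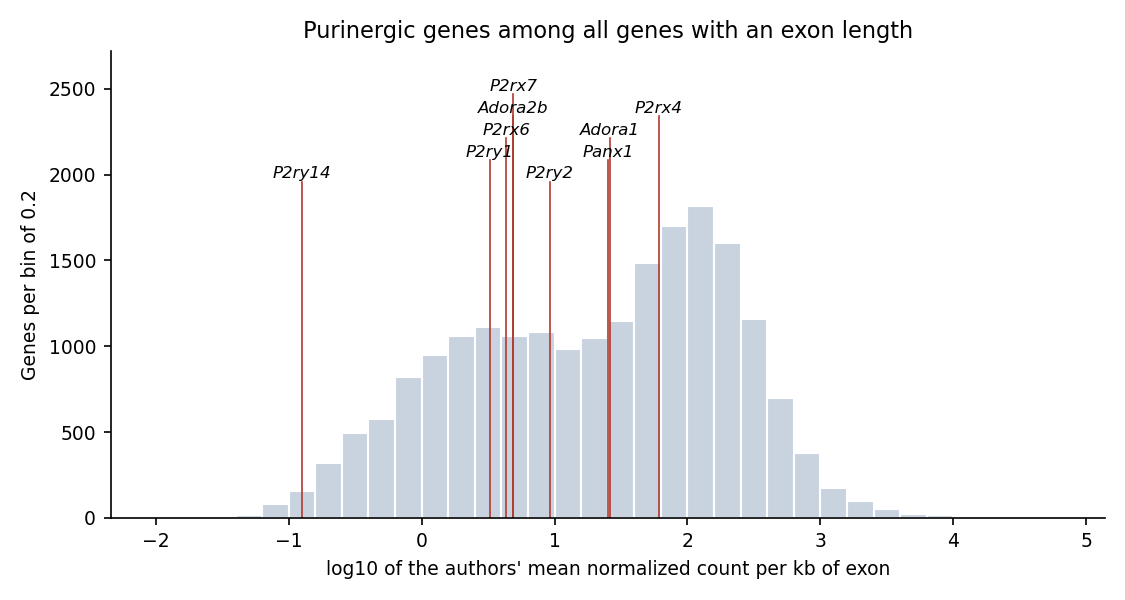
Number of genes (bars) in bins of 0.2 of the log10 mean normalized count per kb of exon, for the 20122 genes with an exon length, with a line at each of the 9 genes. *P2rx4* lies above the median of all genes, 28.6 per kb, and *P2ry14* near the lower end, at percentile 0.758.

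Several of these genes share exon sequence with a gene on the other strand in GENCODE M39, a later annotation than that used for counting. Whether the earlier annotation held each overlap was not checked. If strand was not used or was mismatched, reads of an opposite-strand gene missing from it could be counted for the member. Its level would then be overstated, which was not tested. *P2rx6* overlaps *Slc7a4*, a member of the cationic amino acid transporter family, over 2617 of its 4595 exon bases (57.0%). *Slc7a4* had a mean of 43.4 and 5.41 per kb, against 4.33 for *P2rx6*. *Adora1* overlaps *Mybph*, a gene of a myosin-binding protein, over 3361 of its 6414 exon bases (52.4%), and *Mybph* was not analysed here. *P2ry1* shares 1049 exon bases (21.8%) with the non-coding gene *Gm37035*, and *Panx1* 930 bases (13.9%) with the non-coding gene *Gm68912*. *P2ry14* lies wholly within *Med12l*, which encodes a Mediator subunit and runs the other way, with 0 annotated *Med12l* exons inside the span of *P2ry14*. *Med12l* had a mean of 397 and 31.1 per kb, far above the 0.125 of *P2ry14*. Reads from unspliced *Med12l* RNA would cover *P2ry14* exons on the opposite strand, and their part in its level was not tested. *Adora2b* overlaps 0 annotated genes.

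If the counting annotation held these overlaps and reads in shared bases were not counted, levels of the most overlapped genes are understated. Per kb of exon that no other annotated gene shares, *Adora1* would stand at 61.2 and *P2rx6* at 10.05, while *P2rx4* would stand at 62.3 and *P2rx7* at 5.11. Across the table, 47 pairs were found in which at least 90% of a gene's exons lay within those of an opposite-strand gene with at least 100 per kb. The enclosed gene had a median of 1.37% of its partner's level per kb (quartiles 0.625% and 5.31%), and it was above its partner in 2 pairs. The partners were picked for a high level, and this choice alone favours a lower level of the enclosed gene. These pairs therefore do not show whether strand was used in counting or reads in shared bases were set aside. HTSeq-count treats a library as stranded by default, in which case reads in bases shared with an opposite-strand gene are kept. The study used default parameters, and how the strand of its reads relates to that default is not given in the sources used here.

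**Figure D4:**
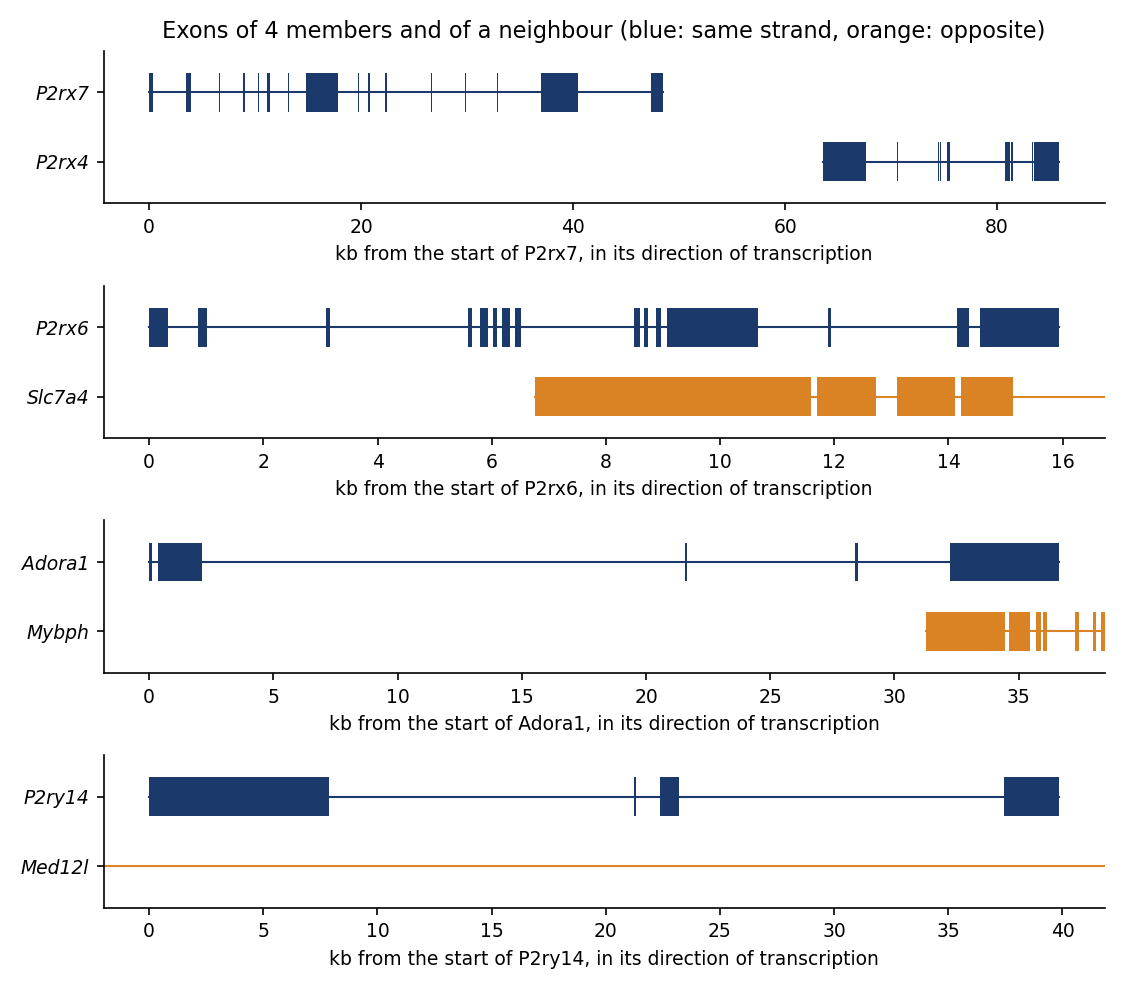
Annotated exons (boxes) of *P2rx7*, *P2rx6*, *Adora1* and *P2ry14*, each with a neighbouring gene, by distance in kb from the first base of the gene in its direction of transcription. Blue marks the same strand and orange the opposite one. *P2rx4* follows *P2rx7* after 15.14 kb, the exons of *Slc7a4* and *Mybph* cover much of *P2rx6* and *Adora1*, and *Med12l* crosses *P2ry14* without an exon.

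The rest of the pathway was described with lists of 67 genes, of which 45 were analysed and 34 had a mean of at least 10. Of 19 genes of G proteins and effectors, 16 were analysed and all 16 of these had a mean of at least 10, with a median of 252 per kb against 4.89 for the 9 members. Of these 16 genes, 11 were above *P2rx4*, the highest member, and 5 were not, with *Plcb1* lowest at 5.17 per kb. The highest were *Gnai2* at 1283 and *Gnai3* at 1151 per kb, which encode inhibitory G protein subunits of the kind A1 and P2Y14 receptors use. *Gnas*, for the stimulatory subunit that A2B receptors use, stood at 1026. *Gna11* and *Gnaq*, which link P2Y1 and P2Y2 receptors to phospholipase C, stood at 506 and 254, and the phospholipase *Plcb3* at 249.

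Of 13 other genes proposed for ATP release, 8 were analysed, with a median of 24.0 per kb, close to *Panx1* at 25.2. *Vdac1*, a channel mainly of the outer mitochondrial membrane, was highest at 1032 per kb. The connexin 43 gene *Gja1* had 72.6, the volume-regulated anion channel gene *Lrrc8a* 57.8 and the connexin 26 gene *Gjb2* 24.1. *Slc17a9*, the vesicular nucleotide transporter, was low at 0.433 per kb. Of 14 genes for breakdown and uptake of ATP and adenosine, 12 were analysed, with a median of 17.9 per kb. *Slc29a1*, the equilibrative nucleoside transporter ENT1, was highest at 153, followed by adenosine kinase, *Adk*, at 68.3 and *Entpd5*, a nucleoside diphosphatase, at 62.4. *Nt5e*, which forms adenosine from AMP outside the cell, had 11.6 and *Enpp1* 24.3. The lowest of the list were *Entpd8* at 0.386 and *Entpd1*, which encodes the ectonucleotidase CD39, at 0.438 per kb. *Entpd2* and *Entpd3* were not analysed here.

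P2X7 is best known as a trigger of the NLRP3 inflammasome in macrophages. Of 7 genes of that route, 4 were analysed. *Nek7*, a kinase that binds NLRP3, had 303 per kb and *Gsdmd*, the pore-forming gasdermin D, 113. *Il18* had 6.50 and *Casp1*, the protease that cleaves both gasdermin D and interleukin 18, only 0.809, with a mean normalized count of 2.54. *Nlrp3*, *Pycard* and *Il1b* were not analysed here.

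**Figure D5:**
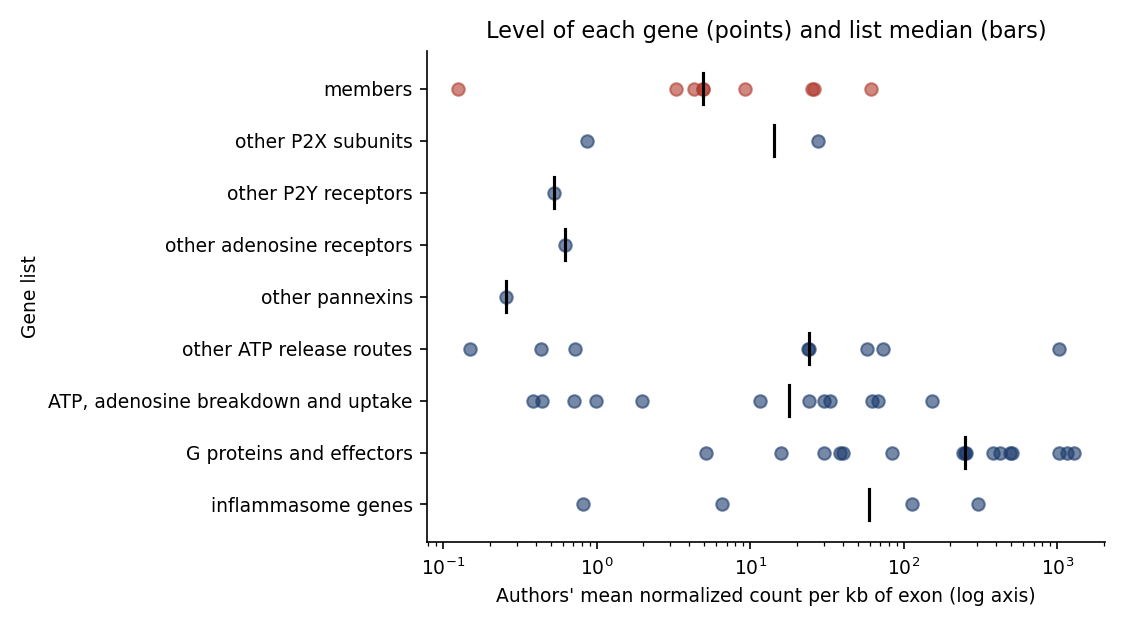
Authors' mean normalized count per kb of exon (log axis) of each gene analysed (points) in the lists of the pathway, with the median of each list as a bar. The 9 members have a median of 4.89 per kb and the genes of G proteins and effectors a median of 252.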

How the data were processed

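Gene expression was measured in 3 wild type and 3 *Pkd1*-/- samples, grouped by their titles. Per the methods and the submitters' processing notes, reads were trimmed with Trim Galore 0.4.5, mapped to GRCm39 with STAR 2.7.5a, counted with HTSeq 0.11.0 at default parameters and analysed with DESeq2 1.22.0 in R 3.5.3. The deposited mean normalized count per gene is a signal, the mean over all samples of counts that the authors divided by size factors. The methods state a lower limit of 5 counts for each sample and gene, but the lowest mean in the table is 0.618. The 5 other value columns hold the authors' comparison of the genotypes (log2 fold change, its standard error, a statistic and p-values) and were not used. The table has 0 columns of single samples, so the edgeR design written for counts was not run, and depth per sample is unknown.

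Means were divided by the length of all annotated exons in kb, from GENCODE M39 (Ensembl 116, GRCm39), a later annotation than that used for counting. Exons annotated only since then would add length without counted reads and lower a level per kb. How far this differs between genes was not checked. A length was found for 20122 genes (97.6%). Percentiles are over these genes. Windows of 42 bases and coding sequences came from the GENCODE transcripts. Members and gene lists were chosen with earlier results of these data known. Genes named are the members, the highest genes of each list, genes without a row and genes that overlap a member. *Trpm6*, *Gnaq*, *Plcb1*, *Plcb3*, *Slc17a9*, *Nt5e*, *Pkd1* and the lowest genes of the marker lists were named after their values were seen. So were *Enpp1*, *Entpd1* and *Entpd8*. One gene of the epithelial list is left out and not reported here, and that list was counted over the others. Alternatives were other lengths, other sets of genes and other minimum means. Functions were tested on simulated data. Python 3.11.15, numpy 2.4.6, pandas 2.3.3 and matplotlib 3.10.9 were used.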

Additional observations from a re-analysis of the deposited data

How the results depend on the processing

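*P2rx4* was highest and *P2ry14* lowest of the 9 genes under each length tried. The lead of *P2rx4* over the second gene, 2.34-fold per kb of all exons, was 4.15-fold per kb of the longest transcript. It was 1.02-fold, over *Adora1*, when the same counts were divided by the exon length that no other gene shares. This alternative was chosen after seeing the data and assumes that no read in shared bases was counted. The distance from highest to lowest was 295-fold per kb of coding sequence against 488-fold. Each coding length is shorter than all exons, so that all 9 levels were more than 1.5 times higher by it, and *P2rx4* and *P2rx7* also were per kb of their longest transcript, at 122 against 61.0 and 9.61 against 4.89. *Adora2b*, with the shortest exons, was at place 6 per kb of all exons and at place 8 per kb of coding sequence or without a correction for length. The number of members above the median per kb fell from 1 to 0 among protein-coding genes and among genes whose mean reached 10. The number of other pathway genes past a minimum mean was 44 at 1 and 29 at 100, against 34 at 10. No paired analysis was possible because the table has no columns of single samples, and for the same reason leaving out replicates, another normalization and another count test were not run. The levels cannot show a difference between genotypes, and means below 10, those of *Adora2b* and *P2ry14*, rest on few reads.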
